A study of Homo sapiens with 72 samples.

Results

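The Krüppel-like factors described here were 10 genes, KLF2, KLF3, KLF4, KLF5, KLF6, KLF7, KLF9, KLF10, KLF11 and KLF13, taken by their GENCODE 44 symbols from a count table of 62266 genes. All 10 had reads in each of the 72 libraries and passed the filter on low counts in each of 3 cell lines. The libraries came from human epithelial cells exposed to Gardnerella vaginalis (GV), a bacterium of the vaginal tract that is abundant in bacterial vaginosis, with or without a polyamine given beforehand. Polyamines are small, positively charged amines, and putrescine (PUT), spermidine (SPD) and spermine (SPM) carry 2, 3 and 4 amine groups. The cell lines were Ecto, from the ectocervix, Endo, from the endocervix, and VK2, from the vagina. Each is a single line immortalised with papillomavirus E6 and E7 genes, so a difference between lines is a difference between 3 lines and not between tissues of several donors. In every line 8 groups of 3 libraries were measured. Cells without polyamine (NT) and cells pretreated with 4 mM PUT, 400 µM SPD or 400 µM SPM for 4 h were then left without bacteria (noGV) or exposed to 10000000 colony-forming units of GV per well for 24 h. Whether the polyamine was removed before that step is not given in the sources used here. The polyamine doses had been picked in tests on Endo cells, and PUT was given at another dose than SPD and SPM.

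Krüppel-like factors are transcription factors that bind GC-rich and CACCC sequences in gene promoters through zinc fingers at their carboxyl end, so family members can compete for the same sites. Their amino ends differ and set what they recruit. In squamous epithelium KLF5 is known from the dividing basal layer and KLF4 from the differentiating layers above it, and several members are transcribed within minutes to hours of a stimulus. Positions below are those of the gene in GRCh38 as GENCODE 44 gives them. Members that mostly activate transcription and can bind histone acetyltransferases are KLF2 (chr19:16324826-16328685, plus strand), known for holding endothelial cells and lymphocytes in a quiet state, KLF4 (chr9:107484852-107490482, minus strand), KLF5 (chr13:73054976-73077541, plus strand), KLF6 (chr10:3775996-3785281, minus strand), a widely expressed member that responds to injury, and KLF7 (chr2:207074137-207173856, minus strand), known from neurons and fat cells. KLF3 (chr4:38664197-38701517, plus strand) represses transcription through the corepressor CtBP. Members that bind the corepressor Sin3A are KLF9 (chr9:70384604-70414657, minus strand), a target of glucocorticoid and thyroid hormone receptors, KLF10 (minus strand) and KLF11 (chr2:10042849-10054836, plus strand), both known as genes induced by TGF-beta, and KLF13 (chr15:31326835-31435665, plus strand), known from T lymphocytes.

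RefSeq promoter entries (GRCh38.p14) were found for 8 of the 10 genes, 13 entries in all. The 250 bases before the start site are printed for the members with the largest fold changes in Ecto cells under SPM and GV, KLF2 and KLF4. They are also printed for KLF9, which had the largest decrease in Endo cells under GV alone. Under SPM and GV, KLF9 fell in Ecto and VK2 cells, where KLF2 and KLF4 rose. In Endo cells these members moved the same way, down under GV alone and up under SPM and GV. Capitals mark matches, on either strand, to any of the motifs searched. The KLF2 window lies at chr19:16324576-16324825 on the plus strand, directly upstream of the gene. The KLF4 window lies at chr9:107489770-107490019 on the minus strand, inside the longest gene model but outside its exons. The KLF9 window lies at chr9:70414658-70414907 on the minus strand, directly upstream of the gene.
KLF2: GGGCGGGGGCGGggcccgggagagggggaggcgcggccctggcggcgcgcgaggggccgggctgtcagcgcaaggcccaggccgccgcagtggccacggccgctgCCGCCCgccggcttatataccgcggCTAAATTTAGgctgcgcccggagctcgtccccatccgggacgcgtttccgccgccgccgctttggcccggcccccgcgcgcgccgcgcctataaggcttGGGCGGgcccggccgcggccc
KLF4: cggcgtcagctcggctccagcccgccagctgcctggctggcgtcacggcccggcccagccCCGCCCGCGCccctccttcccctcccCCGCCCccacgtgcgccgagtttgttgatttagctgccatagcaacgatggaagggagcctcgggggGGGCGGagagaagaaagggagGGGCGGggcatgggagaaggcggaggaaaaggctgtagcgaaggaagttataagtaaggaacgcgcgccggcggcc
KLF9: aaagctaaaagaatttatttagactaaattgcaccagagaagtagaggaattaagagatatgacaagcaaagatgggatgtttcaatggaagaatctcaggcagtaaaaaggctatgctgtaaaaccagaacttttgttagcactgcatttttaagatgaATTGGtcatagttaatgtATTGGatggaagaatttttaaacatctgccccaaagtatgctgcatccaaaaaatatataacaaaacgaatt

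The KLF2 and KLF4 windows were GC-rich, with 80% and 69.2% G or C, against a median of 58% over 35116 promoter windows, whereas the KLF9 window held 32.4%. Both GC-rich windows held 4 GC boxes (GGGCGG, a site for SP and KLF proteins, which 42.6% of all windows held) and 1 EGR site (GCGNGGGCG, in 8.41% of windows). An EGR match can share letters with a GC box. The KLF2 window held a MEF2 box 120 bases before the start site, a motif found in 2.8% of windows. The KLF9 window held 2 CCAAT boxes (CCAAT, in 32% of windows) and no GC box. The letters of the KLF core (CACCC, 54.7%), the cyclic AMP response element (TGACGTCA, 1.65%), the AP-1 site (TGANTCA, 6.57%), the TATA box (TATAAA, 10.7%) and the CArG box (1.16%) did not occur in these 3 windows. Such matches describe the letters of a window and were not tested as binding sites. The KLF13 window, which is not printed, held 78.8% G or C and 3 GC boxes, and KLF13 fell under SPM and GV in each line.

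The libraries held 20152143 to 42767996 estimated reads (median 31872239). Levels are given in CPM, the read count of a gene divided by the size of its library and brought to a fixed size, with library sizes scaled by the trimmed mean of M values. Nothing in the sources says that replicates were separate cultures, so p-values measure the spread between these libraries, which may be technical. All 10 epithelial markers averaged at least 1 CPM in each line. The fibroblast markers, mostly COL1A1, summed to 25.2 to 71.0 CPM and were highest in PUT+GV libraries, the endothelial markers summed to 1.82 to 20.1 CPM and reached 15.1 to 20.1 CPM in VK2 PUT+GV libraries, and the leukocyte markers summed to 0.447 to 11.9 CPM. The leukocyte sum was also higher in PUT+GV than in NT+GV libraries, at 8.43 to 11.03 against 5.58 to 6.37 CPM in Ecto, 2.77 to 3.38 against 1.29 to 2.11 CPM in Endo and 6.49 to 7.34 against 2.57 to 3.51 CPM in VK2 cells. In PUT+noGV libraries it was 9.63 to 11.9 CPM in Ecto, 0.721 to 1.11 in Endo and 3.88 to 4.75 in VK2 cells. This sum was mostly CD14, with line means of 6.62, 1.08 and 3.17 CPM in Ecto, Endo and VK2 cells. Of the endothelial markers CLDN5 had the highest mean in VK2 cells, 2.38 CPM. No marker of these 3 lists was at 0 in every library of a line, and their part in the results was not tested. Among Ecto SPD+noGV libraries replicate 3 stood apart, with a summed level of the 10 genes of 943 CPM against up to 1142 CPM in the same group. In RNA from whole wells, fewer cells with a transcript and less transcript per cell cannot be told apart.

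In untreated cells (NT+noGV) KLF6 and KLF5 were the most abundant members and KLF2 the least in every line. Levels between genes are compared as CPM per kilobase of exon. In Ecto cells KLF6 led with 93.6 ± 1.4 CPM per kb (SD, n = 3), followed by KLF5 with 22.9 ± 1.67, and KLF2 was at 0.866 ± 0.081 CPM per kb. In Endo cells KLF5 came first, at 67.05 ± 5.78 CPM per kb, with KLF6 at 54.4 ± 1.19 and KLF4 at 36.3 ± 1.44 CPM per kb. In VK2 cells KLF6 was at 80.2 ± 0.528 CPM per kb, KLF5 at 52.6 ± 4.76 and KLF13 at 22.7 ± 0.644 CPM per kb. The order below these differed by line. Neighbours whose libraries overlapped were KLF4 and KLF3, and KLF13 and KLF10, in Ecto cells. In Endo cells KLF13 and KLF10 overlapped. In VK2 cells KLF4 overlapped KLF7, KLF7 overlapped KLF3, and KLF10 overlapped KLF9.

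**Figure D1:**
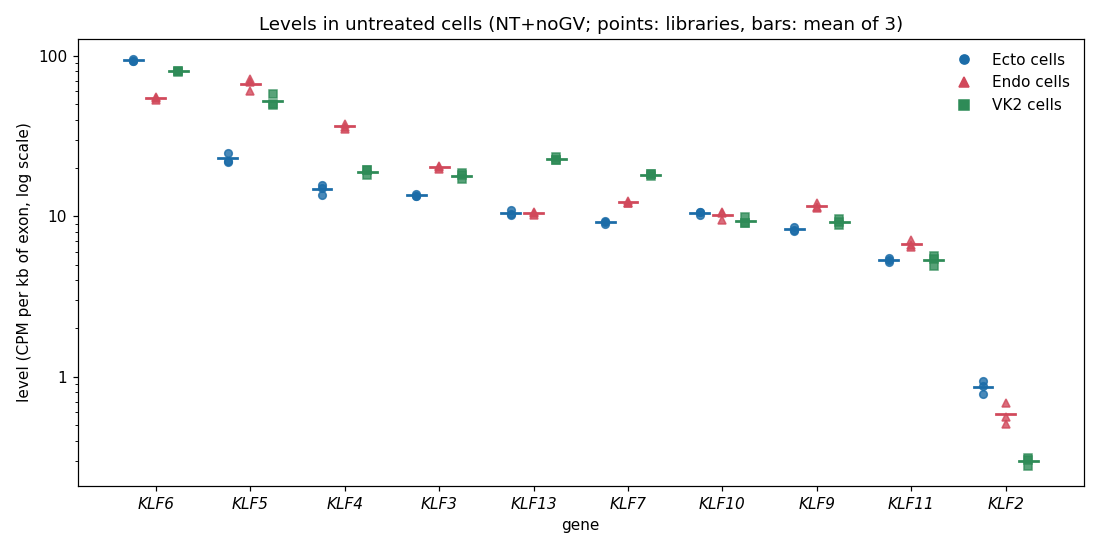
Untreated levels of the 10 genes in CPM per kilobase of exon on a log axis, with a point for each NT+noGV library and a bar at the mean of 3. KLF2 lies below 1 CPM per kb in all lines, KLF5 is lowest in Ecto cells (mean 22.9) and KLF13 highest in VK2 cells (mean 22.7).

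Between lines, KLF4 and KLF5 were higher in Endo than in Ecto cells, and KLF13 and KLF7 were highest in VK2 cells. The log2 difference in level between Endo and Ecto was 1.55 for KLF5 and 1.30 for KLF4, and KLF6 was lower by -0.78. Of the 10 genes, 8 differed between Endo and Ecto, 8 between VK2 and Ecto and 9 between VK2 and Endo, where 63.9%, 63.8% and 59.6% of all tested genes differed (edgeR quasi-likelihood test over all 72 libraries, Benjamini-Hochberg adjusted p under 0.05). KLF13 was 1.11 higher on the log2 scale in VK2 than in Ecto cells (adjusted p = 2.2e-29) and 1.12 higher than in Endo cells, whereas Endo and Ecto differed by -0.01. KLF2 was lower in VK2 than in Ecto cells, with a log2 difference of -1.52. For KLF10 the differences between Endo and Ecto (-0.04) and between VK2 and Endo (-0.12) did not pass. Without replicate 2 of every group the lower KLF2 level of Endo against Ecto cells no longer passed (-0.42, adjusted p = 0.131), nor did the lower KLF10 level of VK2 against Ecto cells without replicate 2 or 3 (adjusted p = 0.239 to 0.425) or the lower KLF3 level of VK2 against Endo cells without replicate 3 (adjusted p = 0.102).

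Across all 24 groups KLF2 varied most. Its group means spanned 42.6-fold, from 0.593 CPM in VK2 SPD+GV cells to 25.3 CPM in Ecto SPM+GV cells. The group means of KLF4 spanned 5.99-fold, those of KLF5 5.63-fold and those of KLF10 5.50-fold, and these 3 were highest in SPM+GV cells. KLF11 spanned 1.86-fold and KLF3 2.09-fold. KLF2 rested on the fewest reads, 11 to 1011 a library, with a median coefficient of variation within groups of 16.5%, against 2.29% for KLF7 and 7.30% for KLF5.

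**Figure D2:**
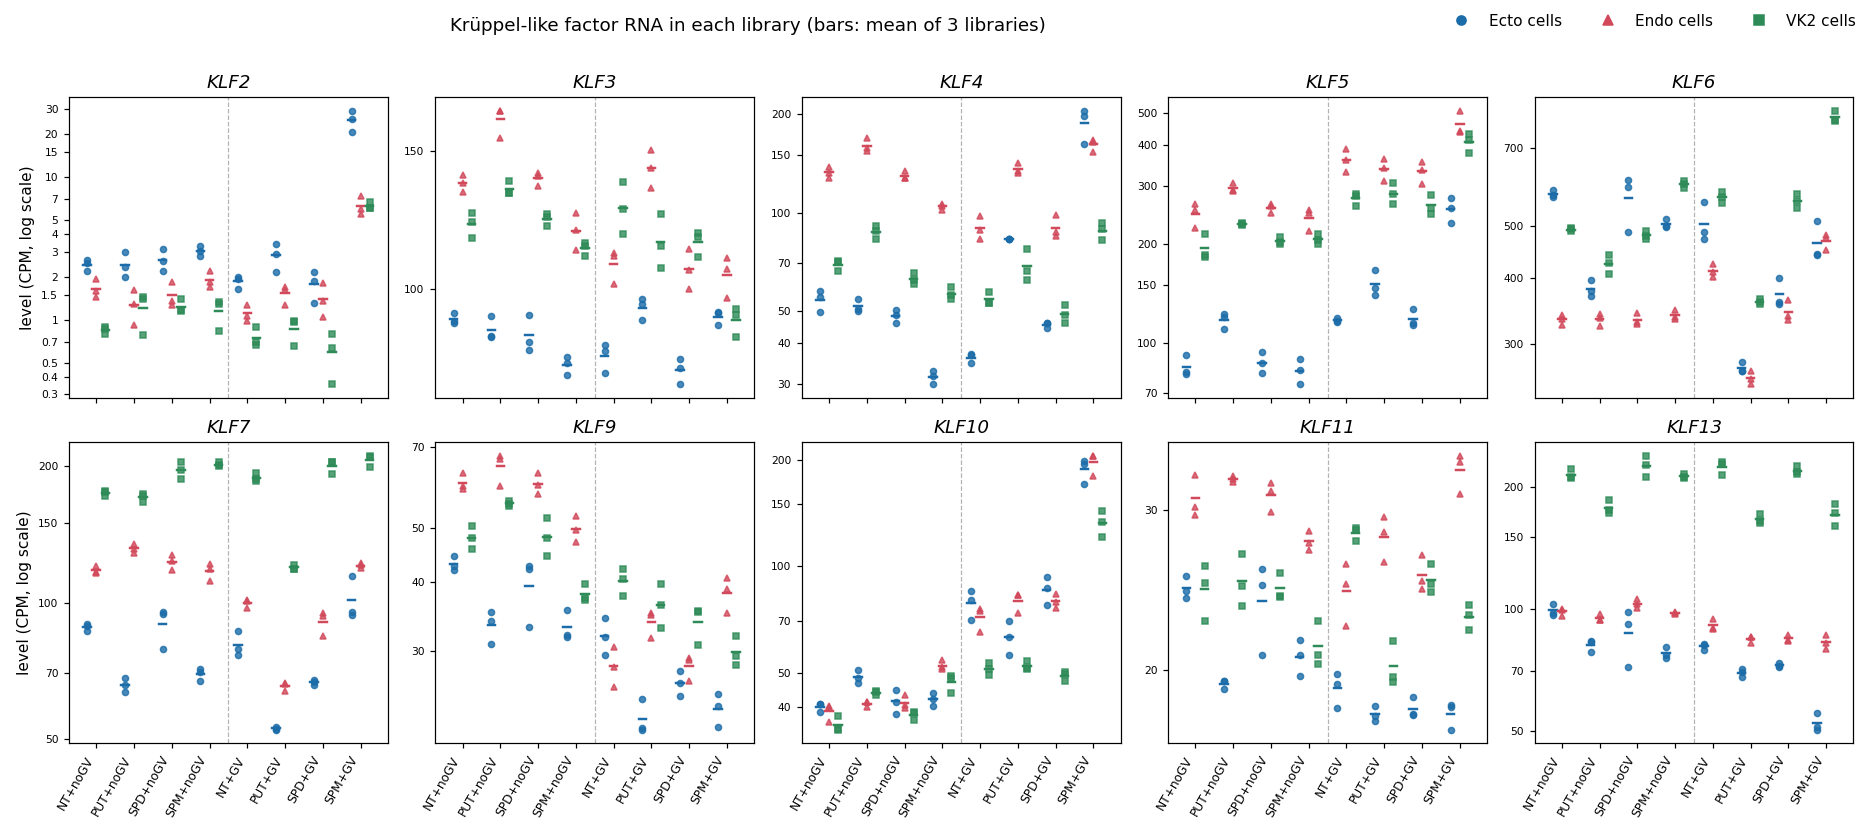
Level of each Krüppel-like factor in every library, in CPM on a log axis, by condition and cell line, with bars at the mean of 3 libraries and a dashed line between groups without and with GV. KLF2, KLF5 and KLF10 are highest in SPM+GV cells in each line, and KLF6 and KLF7 are lowest in PUT+GV cells in each line.

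The comparison of NT+GV with NT+noGV asked which members moved with the bacterium alone. KLF10 and KLF5 rose in all 3 lines, and KLF4 and KLF9 fell in all 3. KLF6 fell in Ecto cells and rose in Endo and VK2 cells. In Ecto cells 2 members rose and 6 fell, in Endo cells 3 rose and 7 fell, and in VK2 cells 5 rose and 2 fell (edgeR quasi-likelihood test, adjusted p under 0.05). These shares stand against 44.6%, 54.4% and 26.4% of all tested genes that passed in either direction in Ecto, Endo and VK2 cells. Of all tested genes 20.9%, 25.7% and 13.9% passed as higher and 23.7%, 28.7% and 12.5% as lower. The median log2 fold change of the 10 was -0.25, -0.28 and 0.11, that of all tested genes 0.00 in each line.

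KLF10, the gene first described as induced early by TGF-beta, was at 38.7, 40.7 and 40.8 CPM in Ecto NT+noGV libraries and at 70.6, 85.2 and 80.1 CPM in NT+GV libraries. In Endo cells it went from 40.4, 36.5 and 40.1 to 65.1, 74.7 and 75.7 CPM, and in VK2 cells from 37.8, 34.8 and 34.6 to 51.1, 49.3 and 53.5 CPM. All GV libraries lay above all libraries without GV of the same line. On the log2 scale Ecto cells gained 0.96 (SE 0.084), Endo cells 0.89 (SE 0.063) and VK2 cells 0.54 (SE 0.056), with adjusted p-values up to 4.86e-09 (edgeR). KLF5, the factor of basal epithelial cells, rose from 91.4, 81.2 and 80.3 to 116, 119 and 115 CPM in Ecto cells. It rose from 254, 223 and 264 to 360, 331 and 388 CPM in Endo cells and from 214, 184 and 182 to 280, 260 and 284 CPM in VK2 cells. Here too the groups did not overlap, and the log2 fold changes of KLF5 were alike, 0.46, 0.55 and 0.52 (SE up to 0.086).

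KLF9, a hormone-regulated repressor, showed the largest decrease. In Endo cells it was at 62.8, 58.6 and 59.4 CPM without and at 30.5, 25.9 and 28.1 CPM with GV, which on the log2 scale was -1.09 (SE 0.064, edgeR adjusted p of 8.1e-15). The log2 fold changes in Ecto and VK2 cells were -0.44 and -0.24. This Endo decrease was the only one of the 10 genes under GV alone to reach 2-fold. KLF4, the factor of the differentiating layers, went from 57.5, 55.1 and 49.8 to 36.9, 34.6 and 36.7 CPM in Ecto cells. In Endo cells KLF4 went from 138, 133 and 128 to 97.9, 82.8 and 88.7 CPM, and in VK2 cells from 71.1, 70.6 and 66.5 to 57.3, 53.1 and 52.9 CPM. The libraries of KLF4 did not overlap in any line, and its log2 fold changes were -0.59, -0.56 and -0.33 (SE up to 0.068, edgeR).

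KLF6, KLF7 and KLF11 fell in some lines and rose in others. KLF6 was at 568, 573 and 584 CPM in Ecto NT+noGV and 554, 487 and 473 CPM in NT+GV libraries, a log2 fold change of -0.19 (adjusted p = 0.0265), but rose by 0.31 in Endo and 0.22 in VK2 cells. KLF11 fell by 0.37 and 0.34 on the log2 scale in Ecto and Endo cells and rose by 0.22 in VK2 cells (edgeR, adjusted p up to 0.00539). KLF3 fell by 0.16 and 0.34 in Ecto and Endo cells, and was at 0.09 with an adjusted p of 0.2 in VK2 cells. KLF13 fell by 0.30 and 0.10 in Ecto and Endo cells and was at 0.08 in VK2 cells (adjusted p = 0.163). KLF7 fell by 0.23 in Endo cells, rose by 0.13 in VK2 cells, and in Ecto cells stood at -0.14 with an adjusted p of 0.0917. KLF2 had few reads here, and only the Endo value of -0.57 passed (adjusted p = 0.0304), with -0.39 in Ecto and -0.17 in VK2 cells. Single libraries decided the weakest calls: KLF6 in Ecto cells did not pass without NT+GV replicate 2 or 3 or NT+noGV replicate 2 or 3 (log2 fold change -0.19 to -0.15, adjusted p = 0.0585 to 0.144), KLF3 in Ecto cells without NT+GV replicate 3 (-0.13, adjusted p = 0.0602), KLF2 in Endo cells without NT+GV replicate 2 or 3 or NT+noGV replicate 1 or 3 (-0.59 to -0.44, adjusted p = 0.0502 to 0.146), KLF13 in Endo cells without NT+GV replicate 2 or 3 or NT+noGV replicate 1 or 2 (-0.09 to -0.07, adjusted p = 0.0625 to 0.163) and KLF11 in VK2 cells without NT+noGV replicate 3 (0.17, adjusted p = 0.0639). KLF6 and KLF3 in Ecto cells and KLF2 and KLF13 in Endo cells also did not pass with library totals as the only scaling. In DESeq2, KLF6 in Ecto (adjusted p = 0.0519) and KLF2 and KLF13 in Endo cells (adjusted p = 0.0851 and 0.051) did not pass. KLF13 in Endo cells failed with RLE factors and with 2 groups only as well (adjusted p = 0.0693 and 0.077). KLF7 in Ecto cells passed without NT+GV replicate 1 (-0.19, adjusted p = 0.0397) and with 2 groups only (-0.11, adjusted p = 0.035).

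Among comparisons with NT cells, SPM given before GV gave the largest single fold change of the 10 genes in each line. KLF6 and KLF7 moved further with PUT and GV. KLF2, KLF4, KLF5, KLF7 and KLF10 were higher in SPM+GV than in NT+GV cells in all 3 lines, and KLF13 was lower in all 3. KLF2 had the largest fold change, 14.03-fold in Ecto cells, 5.73-fold in Endo cells and 8.84-fold in VK2 cells. In Ecto cells 6 of the 10 rose and 2 fell, in Endo cells 8 rose and 1 fell, and in VK2 cells 6 rose and 4 fell (edgeR quasi-likelihood test, adjusted p under 0.05), where 56%, 43% and 58.3% of all tested genes passed in either direction, 28.5%, 21.9% and 27.9% of them higher and 27.5%, 21.1% and 30.3% lower. At least 2-fold higher were 4 members in Ecto cells, 2 in Endo cells and 2 in VK2 cells, against 11%, 3.83% and 8.16% of all tested genes. The median log2 fold change of the 10 was 0.30, 0.41 and 0.38, against -0.02, -0.01 and -0.02 over all tested genes. The PUT+GV, SPD+GV and SPM+GV comparisons share the NT+GV libraries, so their values are given side by side and not as independent evidence.

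KLF2 was at 2.00, 1.64 and 1.94 CPM in Ecto NT+GV libraries and at 20.8, 29.4 and 25.7 CPM in Ecto SPM+GV libraries. In Endo cells KLF2 was at 1.28, 0.981 and 1.07 CPM with GV alone and at 5.99, 7.38 and 5.56 CPM with SPM and GV. In VK2 cells the levels were 0.661, 0.889 and 0.702 CPM and 6.09, 6.66 and 6.12 CPM. The 2 groups were far apart in every line, and no SPM+GV library came near an NT+GV library. KLF2 thereby rose by 3.81 (SE 0.17) on the log2 scale in Ecto cells, by 2.52 (SE 0.20) in Endo cells and by 3.14 (SE 0.23) in VK2 cells, with adjusted p-values up to 7.55e-12 (edgeR).

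KLF4 was at 36.9, 34.6 and 36.7 CPM in Ecto NT+GV and at 162, 205 and 198 CPM in Ecto SPM+GV libraries, which on the log2 scale was 2.43 (SE 0.069, edgeR adjusted p of 8.79e-20). In Endo cells KLF4 went from 97.9, 82.8 and 88.7 to 154, 164 and 167 CPM (log2 fold change 0.86), and in VK2 cells from 57.3, 53.1 and 52.9 to 82.6, 93.1 and 88.9 CPM (log2 fold change 0.76). The Ecto level with GV alone was the lowest of the 3 lines, while Ecto and Endo libraries overlapped with SPM and GV. KLF10 went from 70.6, 85.2 and 80.1 to 171, 199 and 194 CPM in Ecto cells, from 65.1, 74.7 and 75.7 to 180, 205 and 204 CPM in Endo cells, and from 51.1, 49.3 and 53.5 to 121, 143 and 133 CPM in VK2 cells. The log2 fold changes of KLF10 were the most alike across lines, 1.31, 1.46 and 1.43 (SE up to 0.081, edgeR). KLF5 went from 116, 119 and 115 to 231, 258 and 276 CPM in Ecto cells, a log2 fold change of 1.17 (SE 0.077), with 0.37 in Endo and 0.63 in VK2 cells. KLF5 and KLF10 thus rose with GV and rose again with SPM, while KLF4 fell with GV and with SPM stood above its level without GV.

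KLF7 rose by 0.38, 0.28 and 0.20 on the log2 scale in Ecto, Endo and VK2 cells. KLF6, the most abundant member in untreated Ecto and VK2 cells, was at 553, 568 and 579 CPM in VK2 NT+GV libraries and at 791, 823 and 789 CPM in VK2 SPM+GV libraries (log2 fold change 0.56, SE 0.032, adjusted p = 7.68e-16, edgeR). It rose by 0.20 in Endo cells and stood at -0.07 in Ecto cells (adjusted p = 0.419). Among the repressors, KLF13 was at 81.5, 81.7 and 78.9 CPM in Ecto NT+GV libraries and at 55.3, 50.3 and 51.2 CPM in Ecto SPM+GV libraries. The log2 fold change of KLF13 passed in each line, at -0.58 (SE 0.071) for Ecto, -0.13 for Endo and -0.32 for VK2. KLF9 rose by 0.45 in Endo cells, from 30.5, 25.9 and 28.1 to 38.7, 35.1 and 40.6 CPM, and fell by 0.38 in Ecto and 0.36 in VK2 cells. KLF11 rose by 0.45 in Endo and fell by 0.25 in VK2 cells, and was at -0.04 in Ecto cells (adjusted p = 0.6). KLF3 rose by 0.22 in Ecto and fell by 0.42 in VK2 cells, and was at -0.03 in Endo cells (adjusted p = 0.636). Summed over the 10 genes, SPM+GV libraries held the most of all groups in each line, 1408 ± 93.4 CPM in Ecto cells, 1674 ± 72.8 in Endo cells and 1958 ± 42.7 in VK2 cells (SD, n = 3). No member lost or gained its call in this comparison when any single library was left out or under any other setting run.

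**Figure D3:**
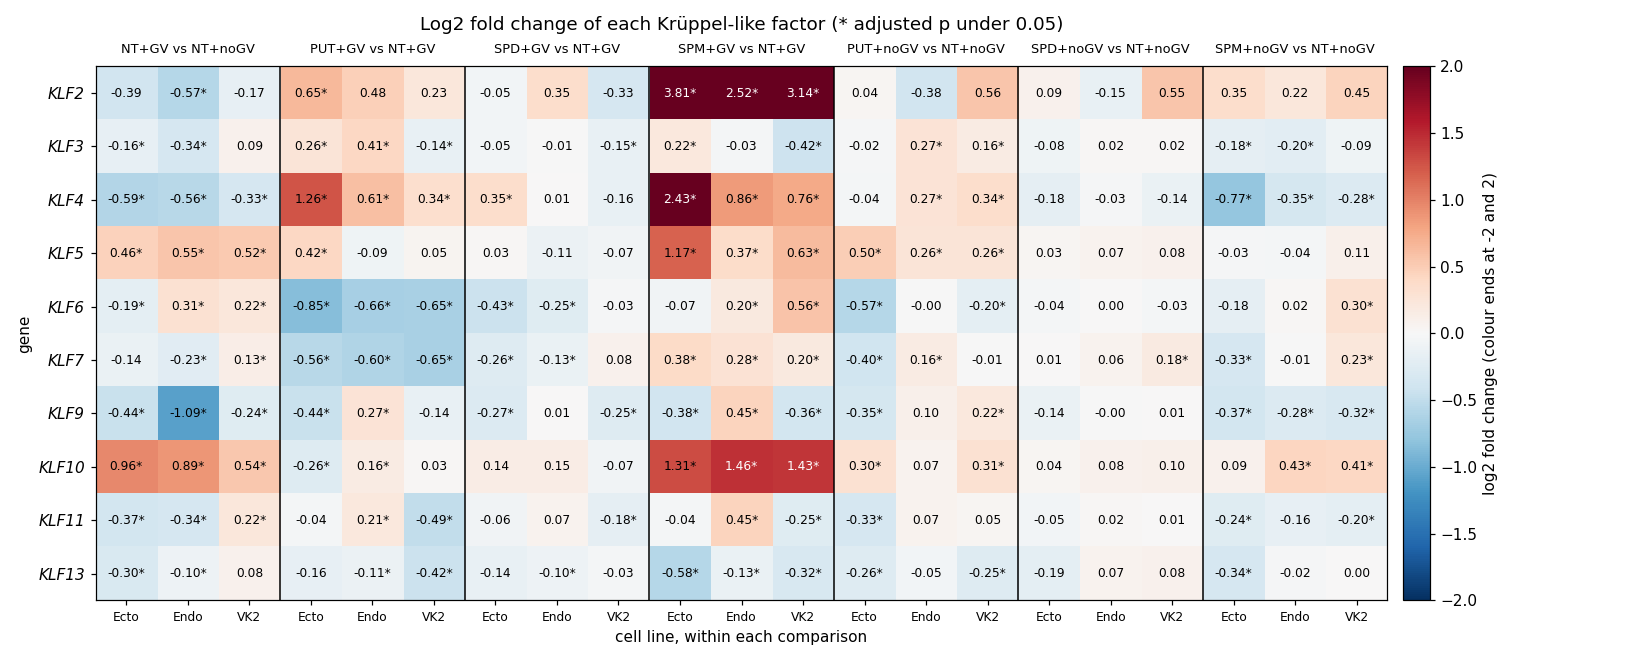
Log2 fold change of each Krüppel-like factor (rows) in 7 comparisons within the 3 cell lines (columns), with the value in each cell, an asterisk for an adjusted p under 0.05, and colour that ends at -2 and 2. KLF2 and KLF10 are positive in all lines under SPM+GV against NT+GV, KLF6 and KLF7 are negative in all lines under PUT+GV, and the SPD+noGV columns hold 1 asterisk.

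PUT given before GV moved KLF6 and KLF7 down and KLF4 up in all 3 lines. In Ecto cells 4 members rose and 4 fell, in Endo cells 5 rose and 3 fell, and in VK2 cells 1 rose and 5 fell (edgeR quasi-likelihood test, adjusted p under 0.05). Of all tested genes 56.3%, 56.1% and 60.4% passed in either direction, 31.5%, 27.9% and 29% higher and 24.9%, 28.2% and 31.4% lower. The median log2 fold change of the 10 was -0.10, 0.18 and -0.14, against 0.07, 0.03 and 0.01 over all tested genes.

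KLF6 went from 554, 487 and 473 CPM in Ecto NT+GV libraries to 277, 268 and 267 CPM in Ecto PUT+GV libraries. In Endo cells KLF6 went from 424, 410 and 401 to 267, 258 and 252 CPM, and in VK2 cells from 553, 568 and 579 to 360, 357 and 364 CPM. All PUT+GV libraries lay below all NT+GV libraries of the line, with log2 fold changes of -0.85, -0.66 and -0.65 (SE up to 0.071, adjusted p up to 1.79e-10, edgeR). KLF7 went from 86.5, 78.8 and 76.5 to 52.4, 53.2 and 52.7 CPM in Ecto cells and from 185, 193 and 188 to 119, 121 and 119 CPM in VK2 cells. Its log2 fold changes were -0.56, -0.60 and -0.65 in Ecto, Endo and VK2 cells (SE up to 0.067, edgeR). KLF4 went from 36.9, 34.6 and 36.7 to 83.3, 82.8 and 83.4 CPM in Ecto cells, 1.26 on the log2 scale (SE 0.068, edgeR adjusted p of 6.07e-14). The KLF4 increases in Endo and VK2 cells were 0.61 and 0.34, and the groups did not overlap in any line.

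KLF3, KLF9, KLF10 and KLF11 differed in sign by line. KLF3 rose by 0.26 in Ecto and 0.41 in Endo cells and fell by 0.14 in VK2 cells. KLF9 fell by 0.44 in Ecto cells, rose by 0.27 in Endo cells and was at -0.14 in VK2 cells (adjusted p = 0.0618). KLF10 fell by 0.26 in Ecto cells, rose by 0.16 in Endo cells and was at 0.03 in VK2 cells. KLF11 rose by 0.21 in Endo and fell by 0.49 in VK2 cells, where its libraries went from 27.8, 28.7 and 28.6 to 19.7, 19.4 and 21.5 CPM. KLF13 fell by 0.11 in Endo and 0.42 in VK2 cells and stood at -0.16 in Ecto cells (adjusted p = 0.0513). That Ecto value passed with RLE factors, without the low-count filter, in DESeq2 and with only the 2 groups in the model (-0.22, -0.17, -0.23 and -0.21, adjusted p = 0.00677, 0.0217, 0.00631 and 8.08e-05). KLF2 and KLF5 rose in Ecto cells, by 0.65 (adjusted p = 0.0055) and 0.42. Calls that ended without a single library were those of KLF10 in Ecto cells (without NT+GV replicate 2 or PUT+GV replicate 1, -0.21 to -0.19, adjusted p = 0.0542 to 0.068), KLF10 in Endo cells (without NT+GV replicate 1 or PUT+GV replicate 2 or 3, 0.09 to 0.10, adjusted p = 0.174 to 0.191), KLF11 in Endo cells (without NT+GV replicate 2 or PUT+GV replicate 3, adjusted p = 0.0503 to 0.0695), KLF13 in Endo cells (without NT+GV replicate 1, adjusted p = 0.0754) and KLF3 in VK2 cells (without NT+GV replicate 1 or PUT+GV replicate 2, -0.10, adjusted p = 0.105), and calls that arose without 1 library were those of KLF13 in Ecto cells without PUT+GV replicate 3 (adjusted p = 0.0296), KLF2 in Endo cells without NT+GV or PUT+GV replicate 1 (adjusted p = 0.0485 to 0.0492) and KLF9 in VK2 cells without NT+GV replicate 2 or PUT+GV replicate 3 (adjusted p = 0.00669 to 0.0279). Scaling by library totals alone turned the sign of KLF13 in Endo cells (0.03, adjusted p = 0.413) and of KLF3 in VK2 cells (0.04, adjusted p = 0.482), and KLF10 in Endo cells did not pass in DESeq2 (0.14, adjusted p = 0.0547).

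SPD given before GV, at the same dose as SPM, moved fewer members. In Ecto cells KLF4 rose (0.35) and KLF6 (-0.43), KLF7 (-0.26) and KLF9 (-0.27) fell. In Endo cells 3 fell, KLF6 (-0.25), KLF7 (-0.13) and KLF13 (-0.10). In VK2 cells 3 fell as well, KLF3 (-0.15), KLF9 (-0.25) and KLF11 (-0.18). The share of all tested genes past the threshold was 13.1%, 13.9% and 12.7% (edgeR quasi-likelihood test, adjusted p under 0.05, either direction), with 6.53%, 5.22% and 4.84% higher and 6.6%, 8.71% and 7.87% lower. The counts behind these shares rested on single libraries too: the 2555 genes of Ecto cells became 1120 without NT+GV replicate 1, 1575 without SPD+GV replicate 1 and 1257 without SPD+GV replicate 2. The 2611 of Endo cells became 1652 and the 2349 of VK2 cells 1291 without NT+GV replicate 1, and without SPD+GV replicate 2 they became 1719 and 1220. KLF6, the most strongly called, went from 554, 487 and 473 to 399, 360 and 356 CPM in Ecto cells (adjusted p = 0.000282) and from 424, 410 and 401 to 363, 339 and 333 CPM in Endo cells (adjusted p = 1.5e-05), without overlap of the groups. KLF2 was at 2.15, 1.88 and 1.32 CPM in Ecto, 1.05, 1.37 and 1.81 CPM in Endo and 0.631, 0.353 and 0.796 CPM in VK2 SPD+GV libraries, which overlapped NT+GV libraries in each line. Single libraries held many of these calls: without NT+GV replicate 1 or SPD+GV replicate 2 the Ecto count was 2 in place of 4, without NT+GV replicate 1 the Endo count was 1 in place of 3, and in VK2 cells none passed without NT+GV replicate 1 or SPD+GV replicate 2 and 1 passed without NT+GV replicate 3. With only the 2 groups compared in the model, 1 member passed in Endo and 1 in VK2 cells. KLF11 in VK2 cells also failed with RLE factors, library totals only, no low-count filter and DESeq2 (adjusted p = 0.0518 to 0.13). With library totals only, KLF9 in Ecto, KLF7 and KLF13 in Endo and KLF3 in VK2 cells failed too (edgeR, adjusted p = 0.0972 to 0.507). KLF7 and KLF13 in Endo cells did not pass without the low-count filter either (adjusted p = 0.0657 and 0.231).

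SPM alone lowered KLF4 in each line, against its increase with GV. KLF4 went from 57.5, 55.1 and 49.8 CPM in Ecto NT+noGV libraries to 32.8, 31.6 and 29.9 CPM in Ecto SPM+noGV libraries. In Endo cells KLF4 went from 138, 133 and 128 to 106, 102 and 105 CPM, and in VK2 cells from 71.1, 70.6 and 66.5 to 56, 54.6 and 59.1 CPM. The groups did not overlap, and the log2 fold changes were -0.77 (SE 0.069), -0.35 (SE 0.055) and -0.28 (SE 0.065) by line, with adjusted p-values up to 0.0015 (edgeR). KLF9 fell with SPM alone in all lines, by 0.37, 0.28 and 0.32 on the log2 scale. KLF2 did not pass in any line, with 0.35, 0.22 and 0.45. KLF10 rose by 0.43 in Endo and 0.41 in VK2 cells. Under SPM alone 6 members fell and none rose in Ecto cells, 1 rose and 3 fell in Endo cells, and 3 rose and 3 fell in VK2 cells, against 23.5%, 18.1% and 33% of all tested genes in either direction. Calls of KLF11 in Ecto cells without SPM+noGV replicate 1 (adjusted p = 0.0501) and in VK2 cells without NT+noGV replicate 1 or SPM+noGV replicate 3 (adjusted p = 0.0713 to 0.0979), and of KLF3 in Endo cells without SPM+noGV replicate 2 (adjusted p = 0.0563), did not hold, and KLF5 in VK2 cells passed without NT+noGV replicate 1 (0.18, adjusted p = 0.0339).

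PUT alone raised KLF5 in all 3 lines, by 0.50, 0.26 and 0.26 on the log2 scale. It lowered KLF6 in Ecto cells, from 568, 573 and 584 to 377, 396 and 370 CPM (log2 fold change -0.57, adjusted p = 2.64e-07, edgeR), and in VK2 cells by 0.20, but not in Endo cells (-0.00, 95% interval -0.07 to 0.07). KLF4 rose by 0.27 in Endo and 0.34 in VK2 cells and was at -0.04 in Ecto cells. With PUT alone 2 members rose and 5 fell in Ecto cells, 4 rose and none fell in Endo cells, and 5 rose and 2 fell in VK2 cells, where 46.8%, 31.9% and 45% of all tested genes passed. With SPD alone no member passed in Ecto or Endo cells (edgeR), where 2 and 0 had an unadjusted p under 0.05, and none passed in DESeq2. In VK2 cells KLF7 rose by 0.18, from 172, 176 and 175 to 197, 205 and 188 CPM (adjusted p = 0.00648). Of all tested genes 0.303%, 0.181% and 0.46% passed with SPD alone. These were 59, 34 and 85 genes, and single libraries moved them: in Ecto cells 15 to 21 passed without any 1 NT+noGV library, 344, 376 and 28 without SPD+noGV replicate 1, 2 and 3, in Endo cells 10 to 13 without NT+noGV replicate 1 or 2 or SPD+noGV replicate 1 or 3, and in VK2 cells 31 to 51 without any 1 of these libraries other than NT+noGV replicate 1. The KLF7 call did not hold without NT+noGV replicate 1 or SPD+noGV replicate 1 or 2 (0.15 to 0.18, adjusted p = 0.05 to 0.0978), KLF13 in Ecto cells fell without SPD+noGV replicate 2 (-0.28, adjusted p = 0.0395), and with PUT alone KLF5 in Endo cells did not pass without NT+noGV replicate 2 or PUT+noGV replicate 3 (adjusted p = 0.0837 to 0.124), KLF3 in VK2 cells without NT+noGV replicate 3 (adjusted p = 0.0531), while KLF2 in VK2 cells passed without PUT+noGV replicate 3 (0.77, adjusted p = 0.0128).

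Spermine differs from spermidine by 1 further aminopropyl group, and both were given at 400 µM with a 4 h pretreatment. They were therefore compared directly, in 60 differences (10 genes, 3 lines, with and without GV), each adjusted over all tested genes. With GV, KLF2, KLF4, KLF5, KLF6, KLF7 and KLF10 were higher with SPM than with SPD in all 3 lines. KLF2 was at 20.8, 29.4 and 25.7 CPM with SPM and 2.15, 1.88 and 1.32 CPM with SPD in Ecto cells, without overlap. The log2 difference of KLF2 between SPM and SPD was 3.86 (95% interval 3.52 to 4.21) in Ecto cells, 2.17 (1.77 to 2.56) in Endo cells and 3.47 (3.00 to 3.94) in VK2 cells. The differences of KLF4 were 2.09 (1.95 to 2.23), 0.85 (0.73 to 0.96) and 0.91 (0.78 to 1.05), and those of KLF10 1.16 (1.00 to 1.33), 1.30 (1.19 to 1.42) and 1.5 (1.39 to 1.6). KLF5 differed by 1.15, 0.48 and 0.71, KLF6 by 0.36, 0.44 and 0.59 and KLF7 by 0.64, 0.41 and 0.11. KLF13 was lower with SPM in Ecto (-0.44) and VK2 cells (-0.29). In all, 7 members were higher and 1 lower in Ecto cells, 8 and 0 in Endo cells, and 6 and 2 in VK2 cells, against 53.8%, 44.6% and 52.6% of all tested genes in either direction.

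Differences between SPM and SPD that did not pass with GV lay within narrow intervals. They were those of KLF9 in Ecto (-0.29 to 0.06) and VK2 cells (-0.25 to 0.03), KLF11 in Ecto (-0.12 to 0.16) and VK2 cells (-0.20 to 0.06), KLF3 in Endo cells (-0.13 to 0.09) and KLF13 in Endo cells (-0.10 to 0.05), and these intervals do not show that the compounds act alike. Without GV the compounds differed less. KLF4 was lower with SPM than with SPD by -0.60 (95% interval -0.74 to -0.45) in Ecto and -0.32 (-0.43 to -0.21) in Endo cells, and stood at -0.14 (-0.27 to -0.00) in VK2 cells (adjusted p = 0.119). KLF10 was higher with SPM by 0.34 in Endo and 0.32 in VK2 cells, and KLF11 lower by -0.19, -0.17 and -0.20 in Ecto, Endo and VK2 cells. The KLF2 intervals without GV were wide, -0.12 to 0.65, -0.06 to 0.79 and -0.58 to 0.38. Here 0 rose and 3 fell in Ecto cells, 1 and 4 in Endo cells and 2 and 2 in VK2 cells, against 20.4%, 12.6% and 28.3% of all tested genes. The Endo share, 2369 genes, became 1475 without SPD+noGV replicate 3 and 1329 without SPM+noGV replicate 2. The Ecto count was 7 without SPD+noGV replicate 3, the library that stood apart, and 1 with only the 2 groups in the model, and the KLF11 calls without GV were lost in each line when one of 2 to 5 single libraries was left out (SPD+noGV replicate 1 or 2 or SPM+noGV replicate 1 or 2 in Ecto, SPD+noGV replicate 1 or 3 or any SPM+noGV library in Endo, SPD+noGV or SPM+noGV replicate 3 in VK2 cells, adjusted p = 0.0646 to 0.21). With GV, KLF7 in VK2 cells did not pass without SPD+GV replicate 3 (0.09, adjusted p = 0.054) and KLF9 in VK2 cells passed without SPD+GV replicate 2 (-0.18, adjusted p = 0.0371).

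**Figure D4:**
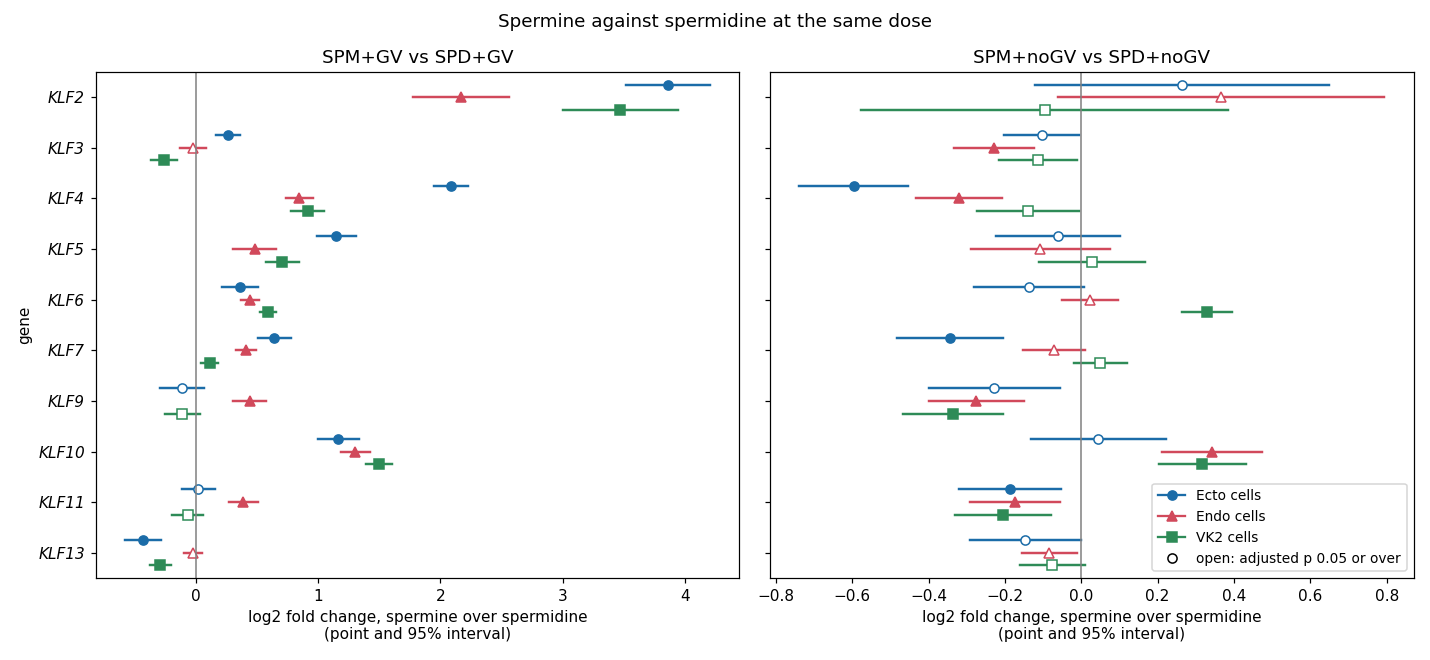
Log2 fold change of SPM over SPD at the same dose, with GV (left) and without GV (right; a narrower axis), as points with 95% intervals for each line; open points did not pass. With GV, KLF2 lies at 3.86, 2.17 and 3.47, and without GV its intervals include 0.

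PUT was given at 4 mM, so its values stand beside those of SPM and SPD with no comparison. In Ecto cells KLF4 was at 83.3, 82.8 and 83.4 CPM with PUT+GV, 46.1, 44.4 and 45.9 CPM with SPD+GV and 162, 205 and 198 CPM with SPM+GV. KLF2 was at 3.42, 2.16 and 2.92 CPM with PUT+GV in the same cells, and KLF10 at 56.1, 63.0 and 70.1 CPM.

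Whether a polyamine acted differently with GV than without was tested as the interaction, the log2 fold change with GV minus that without. For SPM it was largest for KLF2, 3.46 (SE 0.25), 2.30 (SE 0.29) and 2.69 (SE 0.34) in Ecto, Endo and VK2 cells, and for KLF4, 3.20 (SE 0.097), 1.21 (SE 0.078) and 1.04 (SE 0.092). The sign of KLF4 turned, from a decrease with SPM alone to an increase with SPM and GV. KLF10 had interactions of 1.22, 1.03 and 1.01 and KLF5 of 1.20, 0.41 and 0.53, so all 4 genes passed in all 3 lines (edgeR quasi-likelihood test, adjusted p up to 0.0188). In Endo cells KLF9 (0.72) and KLF11 (0.61) passed too, and in VK2 cells KLF13 (-0.33) and KLF3 (-0.33) were negative. In all, 6 interactions were positive and 0 negative in Ecto cells, 8 and 0 in Endo cells and 5 and 2 in VK2 cells, against 36.3%, 24.3% and 38.9% of all tested genes. The Endo calls of KLF6 (without NT+GV replicate 3 or SPM+GV replicate 2, adjusted p = 0.075 to 0.0967) and KLF5 (without NT+noGV replicate 3, adjusted p = 0.0504) did not hold, and KLF13 in Ecto and Endo cells and KLF3 in Endo cells passed when 1 of the libraries Ecto SPM+GV replicate 1, Endo NT+GV replicate 3, Endo SPM+GV replicate 1 or Endo SPM+noGV replicate 1 was left out (adjusted p = 0.0325 to 0.0472).

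For PUT, KLF4 in Ecto cells had an interaction of 1.30 (SE 0.095, adjusted p = 4.73e-10, edgeR), with -0.04 under PUT alone. KLF6 and KLF7 had negative interactions in Endo cells, -0.66 and -0.76, and in VK2 cells, -0.45 and -0.64. The interaction passed for 5 members in Ecto cells (3 positive), 5 in Endo cells (2 positive) and 7 in VK2 cells (all negative), against 26.4%, 34.8% and 27.6% of all tested genes. Several of these calls ended without 1 library. In Ecto cells this was so for KLF6 with any of 7 libraries and KLF11 with any of 5 (adjusted p = 0.0532 to 0.129). In Endo cells it was so for KLF2 with 6 and KLF5 with 5 (adjusted p = 0.0546 to 0.106), and in VK2 cells for KLF13 with 3 (adjusted p = 0.0525 to 0.0784). KLF11 in Ecto cells also failed with RLE factors, library totals only, no low-count filter and DESeq2 (adjusted p = 0.0604 to 0.084). For SPD, KLF4 (0.52) and KLF6 (-0.39) passed in Ecto cells and KLF6 (-0.25) and KLF13 (-0.17) in Endo cells, and none in VK2 cells, where 5 had an unadjusted p under 0.05 and none passed in DESeq2. The background there was 3.13%, 3.45% and 0.352%, or 609, 647 and 65 genes, which ran from 218 to 1045, 310 to 982 and 9 to 104 when single libraries were left out. Leaving out any 1 library moved these counts by over 1.5 times, except NT+GV replicate 3, SPD+GV replicate 3 and SPD+noGV replicate 1 in Ecto, NT+GV replicates 2 and 3 in Endo, and NT+GV replicate 3 and SPD+GV replicates 1 and 3 in VK2 cells. With library totals as the only scaling 8 members passed for PUT in Endo cells and 3 in VK2 cells, and the PUT count of Ecto cells was 3 without NT+noGV replicate 1 and that of Endo cells 3 without NT+GV replicate 3 or PUT+GV replicate 2. PUT interactions that passed only without 1 library were KLF2 in Ecto (any of 2 libraries), KLF9 in Endo (1) and KLF5 in VK2 cells (any of 2), with adjusted p = 0.0104 to 0.045. The SPD count was 1 in Ecto cells without any of 8 single libraries (NT+GV replicate 1, each NT+noGV library, SPD+GV replicate 2 or 3, SPD+noGV replicate 1 or 2), and 1 in Endo cells without NT+GV replicate 1 or 2, SPD+GV replicate 2 or any library without GV.

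Whether lines responded differently was tested as the difference of the same log2 fold change between 2 lines, over all 72 libraries. A difference that did not pass does not show that lines responded alike. Under SPM and GV, KLF4 rose less in Endo (difference -1.53, adjusted p = 8e-21) and VK2 cells (-1.69, adjusted p = 3e-22) than in Ecto cells, whereas Endo and VK2 differed by -0.15 (adjusted p = 0.24, edgeR). KLF5 rose less in Endo (-0.76) and VK2 (-0.55) than in Ecto cells, and KLF2 less in Endo than in Ecto cells (-1.25, adjusted p = 0.00032). The KLF6 response was higher in VK2 than in Ecto (0.62) or Endo cells (0.31). No KLF10 difference passed, with 0.19 for Endo against Ecto, 0.11 for VK2 against Ecto and -0.08 for VK2 against Endo, although without the low-count filter the first 2 did (0.25 and 0.26, adjusted p = 0.0129 and 0.011). The SPM response differed for 8 members between Endo and Ecto, 6 between VK2 and Ecto and 5 between VK2 and Endo, against 25.8%, 31.6% and 24.6% of all tested genes. Of these backgrounds, 5473 genes became 3646 and 2800 without replicate 1 and 2, 6694 became 4268 without replicate 2, and 5216 became 3365 and 3063 without replicate 1 and 2. Differences that were lost without 1 replicate number were those of KLF3 between Endo and Ecto (without replicate 1, 2 or 3, adjusted p = 0.0506 to 0.119), KLF13 between VK2 and both other lines (without 1 or 2, adjusted p = 0.065 to 0.116) and KLF7 between VK2 and Ecto (without 2 or 3, adjusted p = 0.0646 to 0.564).

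The response to GV alone differed for 3 members between Endo and Ecto, 6 between VK2 and Ecto and 5 between VK2 and Endo, against 28%, 27.5% and 25.8% of all tested genes. KLF9 fell more in Endo than in Ecto (-0.66, adjusted p = 7.6e-07) or VK2 cells, where the difference of VK2 from Endo was 0.84 (edgeR). KLF10 rose less in VK2 than in Ecto (-0.45) and Endo cells (-0.36). The response to PUT and GV differed for 7, 8 and 5 members between Endo and Ecto, VK2 and Ecto, and VK2 and Endo, against 24.8%, 35% and 22.4%, and KLF4 rose less in Endo (-0.60) and VK2 (-0.87) than in Ecto cells. The response to SPD and GV differed for 0, 3 and 0 members, against 0.722%, 5.16% and 1.13%, the 3 being KLF4 (-0.48), KLF6 (0.42) and KLF7 (0.36) between VK2 and Ecto cells. The backgrounds moved without 1 replicate number. Under SPD and GV the 153 genes for Endo against Ecto became 19, 39 and 313 without replicate 1, 2 and 3, the 1094 for VK2 against Ecto became 204 and 167 without replicate 1 and 2, and the 240 for VK2 against Endo 16 and 13. Under GV alone 5936 became 3905 and 3854 for Endo against Ecto and 5465 became 3403 and 3564 for VK2 against Endo without replicate 1 and 2, and 5838 became 3586 for VK2 against Ecto without replicate 2. Under PUT and GV 5252 became 3102 and 3250 for Endo against Ecto and 4753 became 2367 and 2775 for VK2 against Endo without replicate 1 and 2. The count for PUT was 4 between Endo and Ecto without replicate 2, 4 between VK2 and Ecto without replicate 1 and 3 between VK2 and Endo without replicate 1. Of the differences named here, KLF10 between VK2 and Endo under GV was lost without replicate 2 (-0.28, adjusted p = 0.181), and for SPD KLF7 without replicate 1 (0.28, adjusted p = 0.197) and KLF4 without replicate 2 (-0.44, adjusted p = 0.0861).

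**Figure D5:**
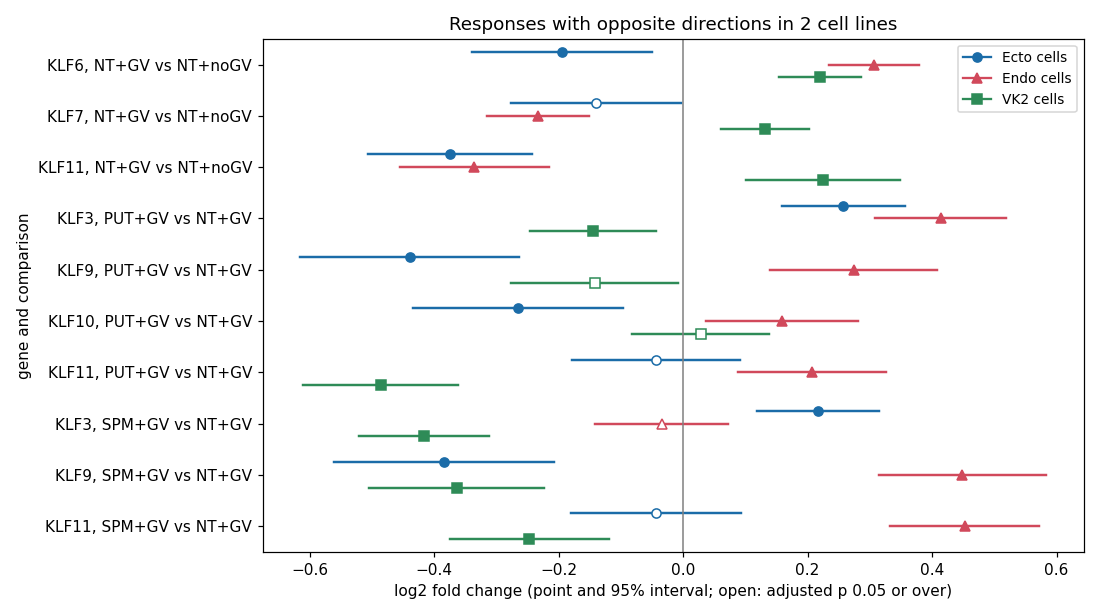
Log2 fold changes with 95% intervals of the genes that rose in 1 line and fell in another under the same comparison; open points did not pass. KLF9 under SPM+GV lies at 0.45 in Endo cells and at -0.38 and -0.36 in Ecto and VK2 cells.

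Genes whose levels followed a member most closely were found by Pearson correlation of log2 CPM over the 72 libraries after the mean of each line was subtracted, among 16963 genes. These libraries share groups, so the values describe the pattern over 24 groups. KLF10 was most like CD83, a surface protein of activated dendritic cells (r = 0.978), NFKBIA, the NF-kappaB inhibitor (0.964), and CYLD, a deubiquitinase that limits NF-kappaB signalling (0.959). KLF5 was most like BMP2, a bone morphogenetic protein (0.947), and PRDM1, a transcriptional repressor that drives terminal differentiation of plasma cells (0.942). KLF13 was most like AHNAK2 (0.937), KLF2 like RNF43, a ubiquitin ligase that dampens Wnt signalling (0.932), KLF9 like RIN2 (0.915) and KLF4 like BCL6, a transcriptional repressor (0.905). For KLF7 the closest gene was RBMS1 (0.889), for KLF6 PTPN1 (0.886) and for KLF3 CLIP4 (0.871). KLF11 had no close match, with JAG1, a Notch ligand, at 0.729. Among the members themselves r was 0.879 for KLF5 and KLF10, 0.716 for KLF6 and KLF7, 0.711 for KLF2 and KLF10 and 0.707 for KLF2 and KLF4. KLF13 ran opposite to KLF5 (-0.768) and KLF10 (-0.716).

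The start of KLF3 is overlapped on the other strand by KLF3-AS1, whose group means were 0.19 to 1.03 CPM against 78.7 to 165 CPM for KLF3. The library kit keeps strand, and the strand setting of the quantification is not given in the sources used here. KLF7-IT1, inside KLF7, had group means of 0.184 to 0.876 CPM, and the divergent KLF2-DT at most 0.0105 CPM.

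Other genes of the network were counted from lists of relatives, partners and responding genes. The background for these counts under SPM and GV is the 28.5%, 21.9% and 27.9% of all tested genes that were higher and the 27.5%, 21.1% and 30.3% that were lower in Ecto, Endo and VK2 cells. Of 8 other KLF genes, 7 were tested, and under SPM and GV 1 rose and 2 fell in Ecto cells, 2 rose and 1 fell in Endo cells and 0 rose and 1 fell in VK2 cells (edgeR quasi-likelihood test, adjusted p under 0.05). KLF8, a repressor, fell in all 3 lines (log2 fold change -0.48, -0.84 and -0.46). Of 9 SP genes, the sister family that binds GC boxes, 6 were tested, and 3 rose and 1 fell, 3 rose and none fell, and 3 rose and 2 fell in the 3 lines. SP4 rose by 0.59, 0.55 and 0.68.

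Of 10 genes of the ERK5 and MEF2 route, the kinase cascade that switches on KLF2 and KLF4 in endothelium, 1 rose and 4 fell in Ecto cells, 2 rose and 2 fell in Endo cells and 3 rose and 3 fell in VK2 cells under SPM and GV, where 56%, 43% and 58.3% of all tested genes passed in either direction. MAP3K2, the kinase at its top, fell by 0.36, 0.25 and 0.33, and MEF2C rose by 0.39 in Endo and 1.38 in VK2 cells. Of 9 corepressors and coactivators, 2 rose and 4 fell, 3 rose and 5 fell, and 3 rose and 3 fell. EP300, an acetyltransferase, rose by 1.22, 0.68 and 0.75, while CTBP1, the corepressor bound by KLF3, fell by 0.52, 0.19 and 0.30. Of 6 ubiquitin ligases and deubiquitinases that act on KLF proteins, 4 rose and 2 fell, 3 rose and 1 fell, and 3 rose and 2 fell, with FBXW7, which targets KLF2 and KLF5 for degradation, up by 1.44, 0.45 and 0.35.

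Of 12 immediate early genes, all 12 rose in each line under SPM and GV, with medians of 3.75, 2.59 and 3.44 on the log2 scale against -0.02, -0.01 and -0.02 over all tested genes. Their log2 fold changes ran from 0.46 to 5.87 in Ecto cells, 0.26 to 4.48 in Endo cells and 0.33 to 5.49 in VK2 cells. These wide ranges hold the values of KLF2, KLF4, KLF5 and KLF10 alike, so they do not set any of these apart. Under GV alone 9 rose and none fell in Ecto cells, 6 rose and 3 fell in Endo cells and 4 rose and 2 fell in VK2 cells, against 20.9%, 25.7% and 13.9% of all tested genes higher and 23.7%, 28.7% and 12.5% lower. Of 10 TGF-beta response genes 8 rose and 1 fell, 5 rose and 2 fell, and 7 rose and 2 fell with SPM and GV, against 28.5%, 21.9% and 27.9% of all tested genes higher and 27.5%, 21.1% and 30.3% lower. CCN2, a matricellular growth factor, rose by 2.53, 2.02 and 4.49. Of 8 glucocorticoid response genes 5 rose and 2 fell, 4 rose and 2 fell, and 5 rose and 3 fell, against the same shares. Under GV alone 2 of these 8 rose and 4 fell in Ecto cells, 3 rose and 5 fell in Endo cells and 4 rose and 3 fell in VK2 cells, where 44.6%, 54.4% and 26.4% of all tested genes passed in either direction.

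Of 10 squamous differentiation genes 9 were tested. Under GV alone 5 rose and none fell in Ecto cells, 7 rose and 1 fell in Endo cells and 6 rose and 2 fell in VK2 cells, among them TGM1, which crosslinks the cornified envelope (1.05, 2.09 and 1.79), against 20.9%, 25.7% and 13.9% of all tested genes higher and 23.7%, 28.7% and 12.5% lower. Under SPM and GV 4 rose and 4 fell in Ecto cells, 1 rose and 7 fell in Endo cells and 2 rose and 6 fell in VK2 cells, and IVL, an envelope precursor, fell by 1.09, 0.72 and 0.79. Of 8 vascular and lymphocyte genes under KLF2 control, 4 were tested in Ecto and Endo cells and 5 in VK2 cells, and 3 rose and none fell, 2 rose and 1 fell, and 3 rose and 1 fell under SPM and GV. EDN1, the vasoconstrictor peptide endothelin 1, rose by 2.29, 3.03 and 3.07 and the sphingosine phosphate receptor S1PR1 by 0.81, 1.62 and 0.92. Some markers of cell types moved as well under SPM and GV: of the fibroblast markers 1, 0 and 1 rose and 2, 1 and 1 fell among 4, 2 and 6 tested in Ecto, Endo and VK2 cells, of the leukocyte markers 1, 1 and 2 rose and none fell, of the endothelial markers 2, 0 and 1 rose and 0, 1 and 1 fell, and of 10 epithelial markers 2, 1 and 2 rose and 5, 6 and 7 fell. These counts stand against 28.5%, 21.9% and 27.9% of all tested genes higher and 27.5%, 21.1% and 30.3% lower. Most leukocyte and endothelial markers were near the floor. Of 7 leukocyte markers 1 averaged at least 1 CPM in each line, and of 8 endothelial markers 1, 1 and 2 did. The part of these markers in the results was not tested.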

How the data were processed

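Total RNA of 72 libraries was depleted of ribosomal RNA and sequenced from a stranded kit with molecular identifiers (CORALL, NovaSeq, paired ends). The authors quantified reads against GENCODE 44 (GRCh38.p13 per the labels) with Salmon, imported them with tximeta and deposited 1 table of estimated counts per gene, which held whole numbers. Whether identifiers were used to remove duplicates, and the Salmon version, are not given in the sources used here. Libraries held 20152143 to 42767996 estimated counts, and precision is given by the spread over 3 libraries.

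For each line, edgeR 4.0.16 (R 4.3.3) was fitted to its 24 libraries in 8 groups with TMM factors, filterByExpr and robust quasi-likelihood tests (19459, 18741 and 18474 genes in Ecto, Endo and VK2), and 1 model of all 72 libraries (21195 genes) gave differences between lines. p-values were adjusted by Benjamini-Hochberg over all tested genes of a comparison, and a gene rose or fell at an adjusted p under 0.05. The fits were tested on simulated data with planted changes. Alternatives were DESeq2 1.42.0 and models of 2 groups (within lines), DESeq2-type (RLE) factors, library totals only, no low-count filter, a replicate block and leaving out libraries. Libraries of the same replicate number shared a weak pattern that recurred, as 58 of 72 libraries were most like those of their own number. The main tests did not use the number. The members and all lists were chosen with earlier results of these data known. All 10 members were named in every comparison. From other lists came counts and up to 4 genes per list, those of smallest adjusted p, and per member the 3 genes most alike in pattern, of which some are printed. Promoters were RefSeq windows, searched on both strands.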

Additional observations from a re-analysis of the deposited data

Results flagged for a closer look

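Among 120 tests of a difference in response between 2 lines, 14 concerned a gene that rose in 1 line and fell in the other, with both changes and their difference past an adjusted p of 0.05 (edgeR quasi-likelihood test). They fell on 6 of the 10 genes, and values below are log2 differences between lines. Under GV alone the KLF6 response was higher in Endo than in Ecto cells by 0.488 and in VK2 than in Ecto cells by 0.39. The KLF11 response to GV was higher in VK2 than in Ecto cells by 0.575 and than in Endo cells by 0.548, and the KLF7 response was higher in VK2 than in Endo cells by 0.353. Under PUT and GV, Endo exceeded Ecto cells by 0.759 for KLF9 and by 0.469 for KLF10. For KLF3 the VK2 response differed by -0.355 from Ecto and by -0.556 from Endo cells, and for KLF11 VK2 differed from Endo cells by -0.691. Under SPM and GV the KLF9 response of Endo cells exceeded that of Ecto cells by 0.874, and VK2 differed from Endo cells by -0.865. KLF3 differed by -0.645 between VK2 and Ecto cells, and KLF11 by -0.752 between VK2 and Endo cells. The Ecto decrease of KLF6 under GV, the Ecto and Endo changes of KLF10 under PUT and GV, the VK2 increase of KLF11 under GV, the Endo increase of KLF11 and the VK2 decrease of KLF3 under PUT and GV each lost their call without single libraries, as given with those comparisons. In DESeq2 the Ecto decrease of KLF6 under GV (adjusted p = 0.0519) and the Endo increase of KLF10 under PUT and GV (adjusted p = 0.0547) did not pass. The cause was not tested.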

How the results depend on the processing

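Of 510 results for single members, 498 kept their direction and side of the threshold with RLE factors, 475 without the low-count filter, 490 with the replicate block and 462 with library totals only, as did 344 of 356 in DESeq2 and 254 of 270 with 2 groups only. Library totals shifted the median of all genes by over 0.1 in 11 comparisons (-0.16 to 0.19), and turned KLF13 under PUT and GV in Endo cells to 0.0345 and KLF3 under PUT and GV in VK2 cells to 0.0427. Libraries of the same replicate number shared a weak pattern. Among the 3 numbers, 58 of 72 libraries were most like those of their own number. Correlations of same-numbered deviations ran from -0.0558 to 0.0806. The main tests did not use the number, and what it stands for is not given in the sources used here. Blocking on it gave 18 of the 510 results a call and took 2 calls away. With the replicate block the untreated KLF10 level of VK2 against Ecto cells stood at -0.08 (adjusted p = 0.302), and KLF9 there (0.18, adjusted p = 0.014) and KLF13 under PUT and GV in Ecto cells (-0.16, adjusted p = 0.0386) passed.

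Counts of members past the threshold moved by over 1.5 times as follows. With the replicate block they were 5 for SPD with GV in Endo cells (3 without), 4 for the SPD interaction in Endo cells (2 without) and 1 for the SPD response of VK2 against Endo cells (0 without). Without the low-count filter they were 1 for the SPD response of Endo against Ecto cells, 1 for SPD alone in Ecto cells and 1 for the SPD interaction in Endo cells. With 2 groups only they were 1 for SPM against SPD without GV in Ecto cells and 1 for SPD with GV in both Endo and VK2 cells. With library totals only they were 1 for the SPD interaction in Ecto and in Endo cells, 8 for the PUT interaction in Endo cells and 3 in VK2 cells.

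When libraries were left out one at a time, the counts of members ran, lowest to highest, from 3 to 5 for the PUT interaction in Ecto and in Endo cells, from 1 to 3 and 1 to 2 for the SPD interaction in Ecto and Endo cells, from 2 to 4, 1 to 3 and 0 to 3 for SPD with GV in Ecto, Endo and VK2 cells, from 0 to 1 for SPD alone in Ecto and in VK2 cells and from 2 to 7 for SPM against SPD without GV in Ecto cells. Without 1 replicate number the PUT response differed for 4 to 7 members between Endo and Ecto, 4 to 7 between VK2 and Ecto and 3 to 5 between VK2 and Endo cells.

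Over all genes, counts that moved by over 1.5 times outside the leave-one-out fits all concerned SPD. With 2 groups only, SPD with GV gave 4288, 1484 and 1431 genes in Ecto, Endo and VK2 cells (2555, 2611 and 2349 in the full models), SPD alone 2, 140 and 216 (59, 34 and 85) and SPM against SPD without GV 942 in Ecto cells (3979). For SPD alone DESeq2 gave 289, 148 and 148, no filter 1073, 141 and 164, and the block 90 and 241 in Ecto and Endo cells. For the SPD interaction (609, 647 and 65) DESeq2 gave 1339, 1033 and 224, no filter 1228 and 197 in Ecto and VK2 cells, and the block 1449 and 157 in Endo and VK2 cells. The SPD response gave 396 without filter and 264 with the block for Endo against Ecto (153), and 366 and 378 for VK2 against Endo (240). The causes were not tested. Depth limits KLF2 most, at 11 to 1011 reads a library.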
